A study of Homo sapiens with 6 samples.

Results

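The enzymes described here make, salvage or break down deoxynucleotides, the building blocks of DNA. They were chosen by gene symbol from a fixed set of 8: the ribonucleotide reductase subunits RRM1 and RRM2, the thymidylate enzymes DUT, TYMS and DTYMK, the salvage kinases TK1 and DCK, and SAMHD1. All 8 were found, out of 14034 genes in the table, of which 12420 carried a name. SAMHD1 belongs to the set although it degrades deoxynucleotides rather than making them. The samples were 6 RNA-seq libraries of JHH-4, an established human hepatocellular carcinoma line with an epithelial-like form. The control group held 3 libraries labelled wild type, and the other group held 3 libraries of cells in which miR-885-5p was raised from a plasmid carrying its primary transcript. The labels do not say whether control cells got an empty plasmid, so the plasmid and the microRNA cannot be told apart. The submitters describe the libraries of a group as technical replicates, so each p-value below measures only the spread between such libraries.

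Ribonucleotide reductase takes the oxygen from the sugar of ribonucleotides and is the entry point for DNA precursors made de novo. Its large subunit RRM1 carries the active site and its small subunit RRM2 the radical that starts the reaction. Thymidine nucleotides need further steps: DUT turns dUTP into dUMP, TYMS methylates dUMP with a folate donor, and DTYMK phosphorylates the product. Thymidine and deoxycytidine from outside the cell enter through the kinases TK1 and DCK, and SAMHD1 cleaves finished deoxynucleotides again. Several of these genes are known to be expressed most strongly around the time a cell copies its DNA, and drugs against liver and other tumours act on RRM1, RRM2 and TYMS or are activated by DCK.

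The microRNA is shown because its seed, bases 2 to 8 in capitals, sets the letters searched in the messenger RNAs of the enzymes. It is 22 bases long and lies at chr3:10394531-10394552 on the minus strand (RefSeq, GRCh38.p14).
hsa-miR-885-5p: uCCAUUACacuacccugccucu
The pairing sites searched in DNA letters were GTAATGG (opposite the whole seed), GTAATGGA, TAATGGA and the shorter TAATGG. For each gene the longest 3′ UTR in GENCODE 29 (GRCh38) was read, and 0 of the 8 enzymes held GTAATGG, GTAATGGA or TAATGGA. Nor did GTAATGG occur anywhere else in the transcript that carried that UTR. Among 12304 genes with a 3′ UTR, 8.01% held GTAATGG, 2.54% held GTAATGGA, 13.1% held TAATGGA and 30.4% held TAATGG. The 3′ UTRs of the enzymes ran from 385 bases in DTYMK to 3159 in SAMHD1, beside a median of 1389 over all genes. RRM2 alone among the 8 held the shorter TAATGG, at chr2:10129856-10129861 on the plus strand, which begins at base 470 of its 2033-base 3′ UTR. It is printed with its flanks, the site in capitals.
RRM2 site: tgaccacTAATGGgagccaa
A match is a description of letters and shows no binding, and no match says only that these letters are not in this window.

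The start regions of 5 of the genes are printed because these genes mark the ends of the range described below: RRM2, TYMS and TK1 had the lowest log2 fold changes of the 8, and DUT and DCK did not pass the test. Each window runs from 250 bases before to 50 bases after a RefSeq start (GRCh38.p14) and is written along the gene's own strand. Capitals mark matches on either strand to CCAAT, to the E2F-like letters TTTCCCGC, TTTGGCGC, TTTCGCGC or TTTGCCGC, and to the CHR-like letters TTTGAA or TTCGAA. E2F and the proteins that bind CHR elements are known regulators of cell cycle genes, and CCAAT is bound by NF-Y. Where RefSeq gives several starts, the window with the most matches is shown.
RRM2, chr2:10122489-10122788, plus strand: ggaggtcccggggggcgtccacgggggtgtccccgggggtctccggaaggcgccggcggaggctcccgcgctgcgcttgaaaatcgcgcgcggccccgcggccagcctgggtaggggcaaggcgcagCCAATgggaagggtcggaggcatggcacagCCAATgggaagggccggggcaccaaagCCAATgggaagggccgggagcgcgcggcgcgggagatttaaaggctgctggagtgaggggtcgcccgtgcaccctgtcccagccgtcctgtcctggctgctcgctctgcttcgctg
TYMS, chr18:657403-657702, plus strand: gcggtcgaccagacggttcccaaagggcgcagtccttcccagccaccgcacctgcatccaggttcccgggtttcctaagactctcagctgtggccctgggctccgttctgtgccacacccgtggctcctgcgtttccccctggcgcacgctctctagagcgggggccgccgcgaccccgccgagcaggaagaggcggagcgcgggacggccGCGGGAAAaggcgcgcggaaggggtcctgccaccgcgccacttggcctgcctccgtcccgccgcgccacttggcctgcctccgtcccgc
TK1, chr17:78187003-78187302, minus strand: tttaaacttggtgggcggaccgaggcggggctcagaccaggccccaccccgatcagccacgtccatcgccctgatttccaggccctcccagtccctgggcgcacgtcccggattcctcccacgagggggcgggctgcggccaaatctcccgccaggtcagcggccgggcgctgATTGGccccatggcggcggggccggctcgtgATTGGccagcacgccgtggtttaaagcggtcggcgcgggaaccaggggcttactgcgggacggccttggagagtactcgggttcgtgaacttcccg
DUT, chr15:48331947-48332246, plus strand: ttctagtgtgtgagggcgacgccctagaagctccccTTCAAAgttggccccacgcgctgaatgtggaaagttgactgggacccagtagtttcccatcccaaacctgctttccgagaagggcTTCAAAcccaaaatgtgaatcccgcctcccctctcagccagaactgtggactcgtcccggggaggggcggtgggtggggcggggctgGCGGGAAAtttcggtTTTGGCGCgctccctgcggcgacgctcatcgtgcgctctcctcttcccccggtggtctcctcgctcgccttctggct
DCK, chr4:70993399-70993698, plus strand: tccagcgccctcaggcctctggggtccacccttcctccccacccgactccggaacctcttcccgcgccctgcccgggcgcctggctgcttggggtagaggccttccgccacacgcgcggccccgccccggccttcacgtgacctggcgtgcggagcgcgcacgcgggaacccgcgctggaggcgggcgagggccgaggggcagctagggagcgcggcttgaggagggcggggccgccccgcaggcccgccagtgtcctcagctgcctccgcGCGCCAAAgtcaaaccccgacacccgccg
RRM2 held 3 CCAAT matches, TK1 held 2, TYMS held 1 E2F-like match, DCK held 1, and DUT held 2 E2F-like and 2 CHR-like matches. Of the windows not printed, RRM1 had 1 CCAAT and 1 CHR-like match, DTYMK 2 and 1, and SAMHD1 2 CCAAT matches. No 2 matches overlapped in these windows. Over 34943 RefSeq windows of the same length, 3.30% held at least 1 E2F-like match and 0.143% at least 2. At least 1 CCAAT match was in 34.6%, at least 2 in 10.8% and at least 3 in 3.26%, and at least 1 CHR-like match was in 16.4%. The shares are over single windows, whereas DUT has 4 RefSeq windows and RRM2 and TK1 have 2 each, of which the richest is shown. The other 3 windows of DUT held 0 E2F-like matches. Only these exact letters were searched. A match shows no binding, and the lack of a match does not mean that these factors have no site there.

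Total counts ran from 46382314 to 56409821 per library, and each enzyme drew between 1469 and 18807 counts in every library. Control library 3 lay apart from the other controls on the second principal component of all genes (12% of the variance), at -25.6 against 10.4 and 14.2. It also had the highest level of the control group for all 8 enzymes, in CPM (counts scaled to library size, with TMM factors). Without it the same number of enzymes, 6, were called lower, and the log2 fold changes of RRM2, TYMS, RRM1 and SAMHD1 were -0.96, -0.92, -0.40 and -0.44; those of the other 4 are given with their values below. Of the marker genes checked for the cell type, 3 of 5 epithelial genes (KRT8, KRT18 and KRT19) were measured, with summed FPKM between 1819 and 1936 in control and between 1603 and 1683 with miR-885-5p. Of 13 hepatocyte and liver tumour markers, 4 were measured, SERPINA1, CPS1 and FGB among them. They summed to between 22.3 and 24.6 FPKM in control and between 13.5 and 15.2 with the microRNA. The named markers went different ways: FGB fell (log2 fold change -2.20), CPS1 rose (0.48) and SERPINA1 did not pass (-0.08). The remaining 9, ALB and AFP among them, were not analysed here. Of 10 fibroblast and endothelial markers 5 were measured, at 2.92 to 3.52 FPKM in control and 5.68 to 6.17 with miR-885-5p. Of 6 leukocyte markers 2 were measured (CD68 and CD14), at 57.6 to 66.3 and 62.9 to 64.2. CD68 made up nearly all of that sum, with means of 62.1 FPKM in control and 63.3 with miR-885-5p. CD14 was at 0.67 and 0.39 FPKM. The part of these shifts in the results below was not tested.

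With miR-885-5p, the messenger RNA of 6 of the 8 enzymes fell: TK1, RRM2, TYMS, SAMHD1, DTYMK and RRM1. DUT and DCK passed in neither direction, and 0 enzymes rose. Among all genes, edgeR's quasi-likelihood test called 26.5% lower and 26.3% higher at an adjusted p under 0.05, or 52.9% in either direction. The groups did not overlap, with the microRNA libraries lower, for the same 6 enzymes, and for 30.3% of all genes. The median log2 fold change of the 8, miR-885-5p over control, was -0.43, beside -0.00061 over all genes tested. RRM2, TYMS and TK1 had log2 fold changes near -1, and RRM1, DTYMK and SAMHD1 near -0.4. In bulk RNA a smaller share of cells expressing a gene and less RNA per cell cannot be told apart.

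**Figure D1:**
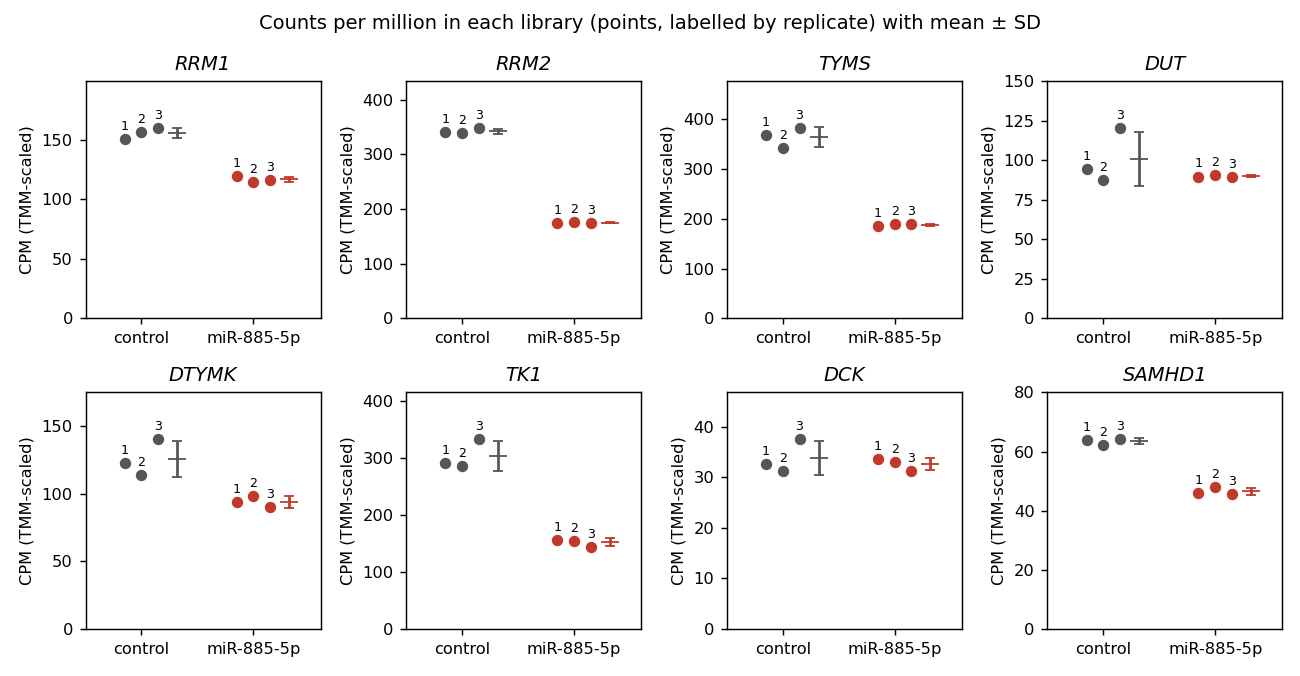
CPM (TMM-scaled, linear axes from 0) of each enzyme in the 3 control and 3 miR-885-5p libraries; points are libraries labelled by replicate and the bars beside them are the mean ± SD. The microRNA libraries sit below every control library for RRM1, RRM2, TYMS, DTYMK, TK1 and SAMHD1, and within the control range for DUT and DCK.

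RRM2 (ENSG00000171848, chr2:10120698-10131419, plus strand; gene positions here and below are those of GENCODE 29 on GRCh38) was at 340.1, 338.5 and 347.5 CPM in control libraries 1 to 3 and at 174.0, 176.4 and 174.5 CPM in miR-885-5p libraries 1 to 3. The spread within each group was small beside the gap, with means of 342.0 ± 4.78 and 175.0 ± 1.30 CPM (SD, n = 3 each). RRM2 fell by 0.97 on the log2 scale (SE 0.03, 1.95-fold lower, adjusted p = 6.21e-08 in edgeR). Of all genes tested, 2.57% had a log2 fold change at or below that of RRM2. Its partner RRM1 (ENSG00000167325, chr11:4094707-4138876, plus strand) was at 150.9, 157.0 and 159.7 CPM in control and at 119.3, 115.0 and 116.3 CPM with the microRNA. Here too every microRNA library was below every control library, by a smaller step. RRM1 fell by 0.42 (SE 0.04, 1.33-fold lower, edgeR adjusted p = 1.56e-05), from 155.9 ± 4.50 to 116.9 ± 2.18 CPM.

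The subunits therefore moved by unequal amounts, which a ratio within each library shows without any scaling between libraries. RRM2 over RRM1, as a ratio of FPKM (fragments scaled by gene length and library size), was 2.01, 2.02 and 2.03 in control and 1.37, 1.43 and 1.37 with miR-885-5p. The ratio was lower in all 3 microRNA libraries, and the log2 ratio of counts differed by -0.55. An exact two-sided permutation test gave p = 0.1, the smallest that 3 against 3 libraries allow (0.125 after adjustment over the 5 ratios computed). RRM2B, on the other hand, rose: this alternative small subunit, known as a p53 target that serves DNA repair and resting cells, went from 14.1 ± 1.18 to 18.1 ± 0.456 CPM (log2 fold change 0.36, SE 0.08, edgeR adjusted p = 0.00367). RRM2 over RRM2B was 32.9, 38.8 and 34.8 in control and 14.2, 13.6 and 13.8 with the microRNA, a log2 difference of -1.33 (exact permutation p = 0.1, adjusted 0.125). The RRM2 transcript thus stayed the more abundant of these 2 small-subunit transcripts in all 6 libraries, and protein was not measured here.

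TYMS (ENSG00000176890, chr18:657604-673578, plus strand), the target of fluoropyrimidines, was at 368.5, 343.4 and 381.8 CPM in control and at 186.0, 189.9 and 189.3 CPM with miR-885-5p. The control libraries varied by more than the microRNA libraries, but the groups stayed far apart. TYMS fell by 0.95 (SE 0.04, 1.93-fold lower, edgeR adjusted p = 2.34e-07), from 364.6 ± 19.5 to 188.4 ± 2.10 CPM. TYMS overlaps TYMSOS and ENOSF1 on the other strand. Whether counting kept the strands apart is not stated, so reads of these genes may be mixed. ENOSF1 itself was at 60.5 ± 3.37 and 43.7 ± 1.01 CPM and also passed the test (log2 fold change -0.47, edgeR adjusted p = 6.39e-05). RRM1, DUT and SAMHD1 likewise overlap genes on the opposite strand (RRM1-AS1, AC023355.1 and TLDC2), whereas RRM2 shares its strand with AC007240.1 and DCK with MOB1B.

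DTYMK (ENSG00000168393, chr2:241675742-241686991, minus strand), which makes dTDP from dTMP for both the de novo and the salvage route, was at 123.1, 114.2 and 140.6 CPM in control and at 93.9, 98.4 and 90.0 CPM with the microRNA. Control library 3 was the highest, and the lowest control library still exceeded all microRNA libraries. DTYMK fell by 0.42 (SE 0.07, 1.34-fold lower, edgeR adjusted p = 7.27e-04). Without control library 3 the log2 fold change was -0.33 (edgeR adjusted p = 2.13e-04).

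DUT (ENSG00000128951, chr15:48331011-48343373, plus strand), which keeps uracil out of DNA by cleaving dUTP, was at 94.5, 87.2 and 120.0 CPM in control and at 89.7, 90.9 and 89.2 CPM with miR-885-5p. The microRNA libraries were nearly equal and lay inside the control range, which control library 3 stretched upward. The log2 fold change was -0.16 with a 95% interval from -0.38 to 0.05 (edgeR adjusted p = 0.185), so a fall as large as that of RRM2 lies outside the interval. It was -0.02 without control library 3 and -0.26 without control library 2, and in the latter case it passed the test (edgeR adjusted p = 0.0249). On the FPKM scale the difference had the opposite sign (log2 0.02, limma adjusted p = 0.897), since DUT was at 45.9, 42.6 and 60.4 FPKM in control and at 46.7, 56.6 and 46.9 with the microRNA. FPKM divided by CPM ran from 0.486 to 0.623 for DUT, a wider relative range than for RRM1 (0.289 to 0.310) or TYMS (0.537 to 0.574). GENCODE names 8 pseudogenes of DUT, 3 of RRM2 and 2 of TYMS. How reads shared with such copies were counted is not stated, which leaves the levels of these 3 genes less certain. Only pseudogenes named after the gene were searched, so copies of the other enzymes under other names were not looked for.

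TK1 (ENSG00000167900, chr17:78174075-78187233, minus strand), the cytosolic thymidine kinase used as a proliferation marker in serum, was at 291.7, 285.6 and 333.5 CPM in control and at 157.0, 155.2 and 143.9 CPM with miR-885-5p. Control library 3 was again the highest, and all microRNA libraries were far below the lowest control. TK1 fell by 0.998 (SE 0.06, 2.00-fold lower, edgeR adjusted p = 1.34e-06), from 303.6 ± 26.1 to 152.0 ± 7.09 CPM. Without control library 3 its log2 fold change was -0.93. DCK (ENSG00000156136, chr4:70992538-71030914, plus strand), the kinase that activates gemcitabine and cytarabine, was at 32.6, 31.2 and 37.5 CPM in control and at 33.6, 33.0 and 31.3 CPM with the microRNA. The groups overlapped, and the log2 fold change was -0.05 with a 95% interval from -0.21 to 0.12 (edgeR adjusted p = 0.600). Without control library 3 it was 0.03 and in log2 FPKM 0.02, so its sign was not settled. TK1 over DCK in FPKM was 14.8, 15.3 and 14.8 in control and 7.78, 7.65 and 7.66 with miR-885-5p, and the log2 ratio of counts differed by -0.95 (exact permutation p = 0.1, adjusted 0.125).

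The mitochondrial kinases were not lower. TK2, which phosphorylates thymidine and deoxycytidine inside mitochondria, was at 22.1 ± 2.57 CPM in control and rose to 28.4 ± 1.87 CPM (log2 fold change 0.36, edgeR adjusted p = 0.00651). DGUOK, its counterpart for purine deoxynucleosides, was at 39.6 ± 0.796 and 40.8 ± 1.16 CPM (log2 fold change 0.04, edgeR adjusted p = 0.483). DCTD, which deaminates dCMP to dUMP, was at 57.4 ± 0.971 and 57.8 ± 1.41 CPM (log2 fold change 0.01, edgeR adjusted p = 0.864).

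SAMHD1 (ENSG00000101347, chr20:36889773-36951901, minus strand), the triphosphohydrolase that also restricts retroviruses, was at 64.0, 62.3 and 64.2 CPM in control and at 46.1, 47.9 and 45.6 CPM with the microRNA. Both groups were tight and did not overlap. SAMHD1 fell by 0.45 (SE 0.05, 1.36-fold lower, edgeR adjusted p = 2.85e-05), so the transcripts for making and for degrading deoxynucleotides were lower in the same libraries. SAMHD1 over RRM2 in FPKM nevertheless went from 0.128, 0.115 and 0.117 in control to 0.170, 0.169 and 0.180 with miR-885-5p. The log2 ratio of counts was 0.52 higher (exact permutation p = 0.1, adjusted 0.125).

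**Figure D2:**
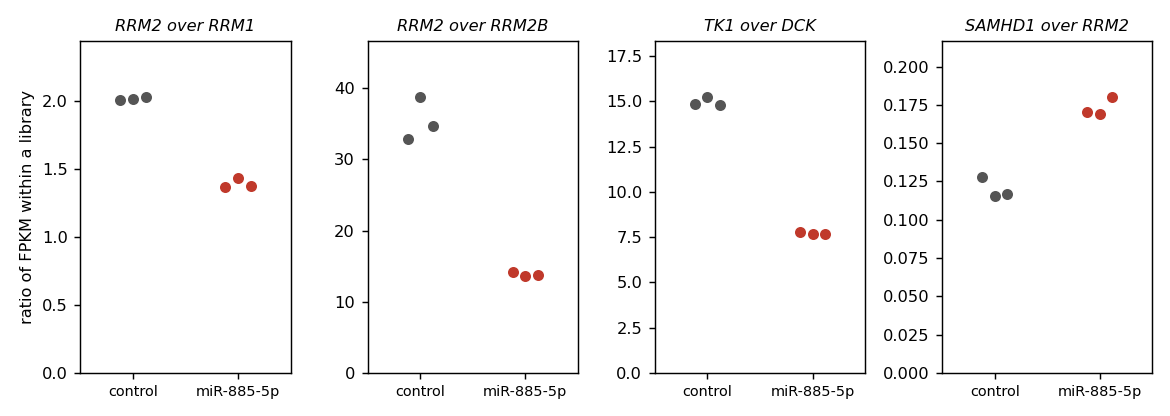
Ratio of the FPKM of 2 genes within each library (points, in replicate order; linear axes from 0) for 4 pairs. RRM2 over RRM1, RRM2 over RRM2B and TK1 over DCK were lower and SAMHD1 over RRM2 higher in all 3 miR-885-5p libraries.

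Against a 1.5-fold change, a stricter edgeR test that asks whether the difference exceeds that size, RRM2 (adjusted p = 7.09e-06), TYMS (5.49e-05) and TK1 (2.52e-04) passed as lower. The other 5 enzymes had an adjusted p of 1.0. Of all genes 2.92% passed as lower in this test. The authors' deposited table gave log2 fold changes of -0.97 for RRM2, -0.95 for TYMS, -0.998 for TK1, -0.42 for RRM1, -0.42 for DTYMK, -0.45 for SAMHD1, -0.16 for DUT and -0.05 for DCK. In the authors' deposited table the p-values of DUT and DCK were 0.0629 and 0.542.

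**Figure D3:**
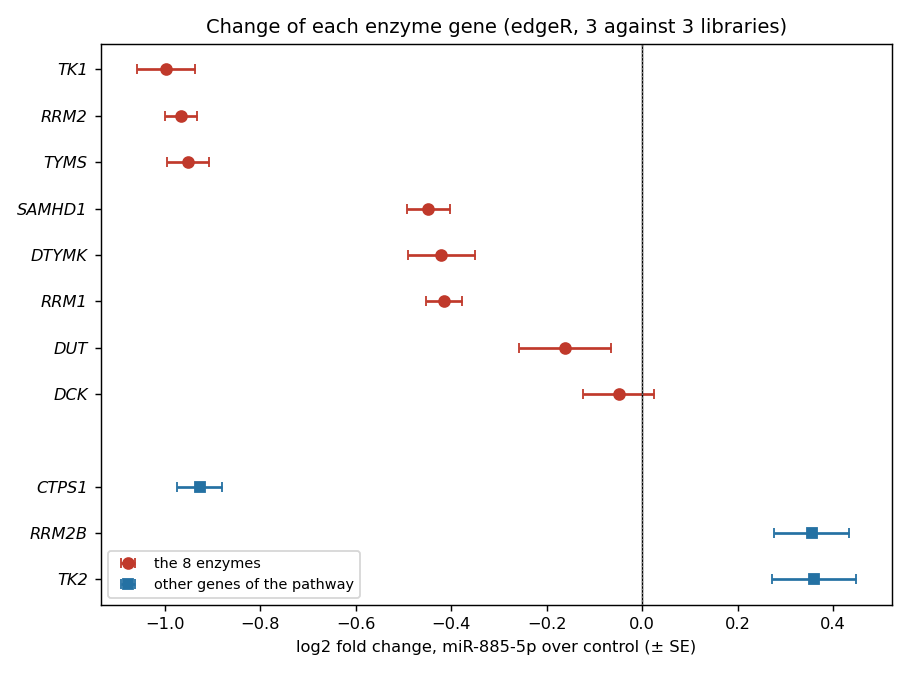
Log2 fold change, miR-885-5p over control, from edgeR for the 8 enzymes (circles) and for CTPS1, RRM2B and TK2 (squares); error bars are ± SE over 3 against 3 libraries. TK1, RRM2 and TYMS lie near -1, SAMHD1, DTYMK and RRM1 near -0.4, and the bar of DCK crosses 0.

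Levels of different genes were compared on the FPKM scale. In control cells TYMS was the highest at 198.1 ± 12.9 FPKM, followed by TK1 at 167.8 ± 16.6, DTYMK at 94.5 ± 10.8, RRM2 at 92.5 ± 3.89, DUT at 49.6 ± 9.46, RRM1 at 45.8 ± 1.65, DCK at 11.2 ± 1.26 and SAMHD1 at 11.1 ± 0.472. The libraries of TYMS and TK1, of DTYMK and RRM2, of DUT and RRM1, and of DCK and SAMHD1 overlapped, so those neighbours had no clear order. With miR-885-5p the order was TYMS at 106.5 ± 2.46 FPKM, TK1 at 87.4 ± 4.36, DTYMK at 73.5 ± 3.95, DUT at 50.1 ± 5.69, RRM2 at 49.6 ± 1.46, RRM1 at 35.6 ± 0.478, DCK at 11.3 ± 0.529 and SAMHD1 at 8.57 ± 0.162. Only DUT and RRM2 overlapped as neighbours there. RRM2 thus went from the level of DTYMK in control to that of DUT, and SAMHD1 from that of DCK to below it.

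**Figure D4:**
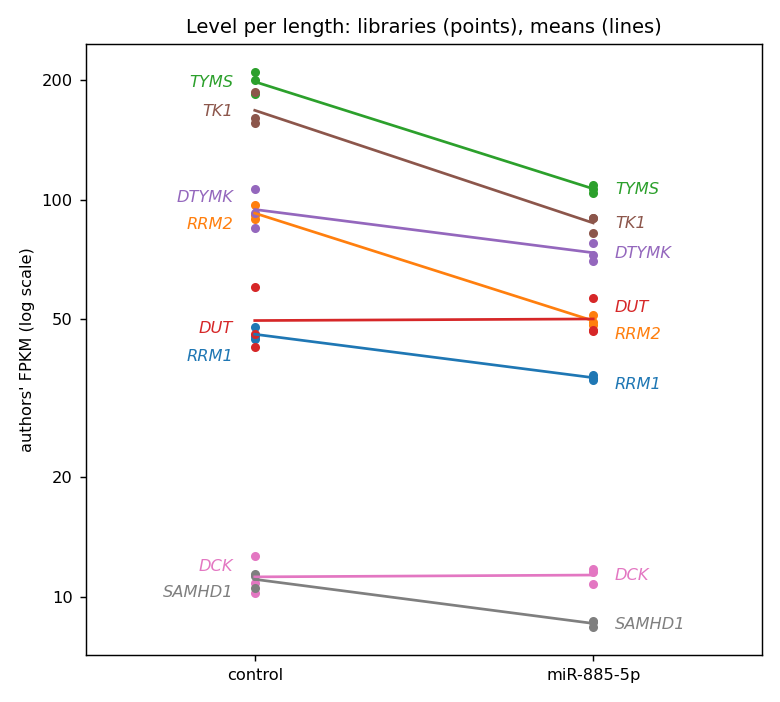
The authors' FPKM (log axis) of the 8 enzymes in each library (points) with lines joining the group means. TYMS and TK1 are the highest in both groups, the line of RRM2 drops from beside DTYMK to beside DUT, and the lines of DUT and DCK are nearly flat.

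Of 27 other genes of deoxynucleotide handling tested, 8 rose, 8 fell and 11 did not pass, with a median log2 fold change of 0.01. These counts are near the shares of all genes called, 26.3% higher and 26.5% lower. The risers included SLC29A1, the equilibrative nucleoside transporter (111.9 ± 6.06 to 172.0 ± 1.18 CPM, log2 fold change 0.62), the mitochondrial deoxynucleotidase NT5M (0.88, from 3.45 ± 0.666 to 6.37 ± 0.185 CPM), and TYMP, which breaks thymidine down (0.54), besides TK2 and RRM2B. The call of TYMP was lost when control library 2 or miR-885-5p library 1 was left out (edgeR adjusted p = 0.0563 and 0.0681). The fallers included the uridine phosphorylase UPP1, from 144.7 ± 9.70 to 99.3 ± 5.21 CPM (log2 fold change -0.54, edgeR adjusted p = 3.61e-05), and the kinase CMPK1, which phosphorylates CMP, UMP and dCMP (-0.22). Among the most abundant genes of this list, the nucleoside diphosphate kinases NME2 (645.8 ± 48.7 to 560.8 ± 25.9 CPM, log2 fold change -0.20, edgeR adjusted p = 0.0133) and NME1 (-0.42, 0.0138) fell. Both calls were lost without miR-885-5p library 2 (edgeR adjusted p = 0.0614 and 0.0606), and that of NME1 also without miR-885-5p library 3 (0.0506). Without control library 3 the log2 fold change of NME1 was -0.26. The guanylate kinase GUK1 did not pass (log2 fold change -0.03). CDA and CMPK2 were not analysed here. Without miR-885-5p library 1 the number of risers was 5, and without miR-885-5p library 2 the number of fallers was 5.

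TYMS takes its methyl group from the folate cycle. Of 12 folate cycle genes tested, 4 fell, MTHFD1, MTHFD1L and SHMT1 among them, 2 rose, MTR among them, and 6 did not pass. The median was -0.03, and of all genes 26.5% were called lower and 26.3% higher. MTHFD1, the cytosolic enzyme that carries folate one-carbon units between oxidation states, fell from 234.8 ± 5.14 to 199.6 ± 5.32 CPM (log2 fold change -0.23). The calls of SHMT1 and MTHFD1L were lost under total count scaling (edgeR adjusted p = 0.0650 and 0.0578) and without miR-885-5p library 1. That of SHMT1 was also lost when control library 1 or 2 or miR-885-5p library 3 was left out. SHMT2, the mitochondrial serine hydroxymethyltransferase, was at 278.7 ± 1.93 and 276.5 ± 2.09 CPM (-0.01, edgeR adjusted p = 0.784). MTR, the methionine synthase, was at 44.6 ± 2.94 CPM in control and at 50.2 ± 2.42 CPM with the microRNA (log2 fold change 0.17, edgeR adjusted p = 0.0418), and its groups overlapped. The call of MTR was lost when control library 1 or 3 or miR-885-5p library 1 or 2 was left out (edgeR adjusted p from 0.0922 to 0.139). The number of fallers was 2 without miR-885-5p library 1, and the number of risers was 1 without control library 1 or 3 or without miR-885-5p library 1 or 2.

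Of 12 de novo purine genes tested, 5 fell (PRPS1, PAICS, PPAT, ADSL and PFAS), 0 rose and 7 did not pass, with a median of -0.10, beside 26.5% of all genes called lower. PPAT, ADSL and PFAS no longer passed in log2 FPKM (limma adjusted p = 0.0554, 0.529 and 0.232), and ADSL and PFAS also not under total count scaling. PAICS, a bifunctional enzyme in the middle of the route, fell from 394.9 ± 5.25 to 265.0 ± 3.64 CPM (log2 fold change -0.58, edgeR adjusted p = 9.25e-07). IMPDH2, the gateway to guanine nucleotides, was at 461.8 ± 10.6 and 458.8 ± 3.21 CPM (-0.01), and ATIC, which ends the route to IMP, at 195.7 ± 8.16 and 196.7 ± 0.168 CPM (0.01). Of 4 purine salvage genes, ADA (log2 fold change -0.38) and HPRT1 (-0.18, edgeR adjusted p = 0.0382) fell. The call of HPRT1 was lost when any library other than control library 2 was left out (adjusted p up to 0.112), and its log2 fold change was -0.11 without control library 3. APRT did not pass (-0.06, and 0.12 without control library 3). Without control library 2 the number of purine genes that rose was 1.

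Of 8 pyrimidine and uridine salvage genes, CTPS1, CAD and UMPS fell, UCKL1 rose and 4 did not pass, with a median of -0.09. The shares of all genes called were 26.5% lower and 26.3% higher. The call of UMPS (log2 fold change -0.15, edgeR adjusted p = 0.0356) was lost when any library other than control library 2 was left out, and in log2 FPKM its log2 fold change was -0.05. CTPS1, which makes CTP and so feeds the deoxycytidine branch, was at 158.3, 153.9 and 169.4 CPM in control and at 87.0, 85.0 and 81.3 CPM with miR-885-5p. It fell by 0.93 (SE 0.05, edgeR adjusted p = 3.90e-07), a size close to that of TYMS. Its paralog CTPS2 did not pass (log2 fold change 0.08, edgeR adjusted p = 0.414). CAD, which performs the opening steps of pyrimidine synthesis, fell from 325.6 ± 4.99 to 282.8 ± 9.66 CPM (log2 fold change -0.20, edgeR adjusted p = 0.00135). The uridine-cytidine kinase UCK2 did not pass (-0.09, edgeR adjusted p = 0.136) but did so without control library 3 (-0.13, 0.0127). In log2 FPKM it also passed, at -0.21 (limma adjusted p = 0.0295). Without control library 3 the number of genes that rose was 2.

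Of 8 electron donors and turnover factors of the reductase, 4 fell, 0 rose and 4 did not pass, with a median of -0.16. Among all genes, 26.5% were called lower and 26.3% higher. CCNF, the F-box protein known to mark RRM2 for degradation, was at 43.0 ± 2.31 CPM in control and fell to 31.4 ± 0.400 CPM (log2 fold change -0.45, edgeR adjusted p = 1.07e-04). The electron carriers TXN (-0.29) and GLRX (-0.25) and the thioredoxin reductase TXNRD1 (-0.33, from 322.9 ± 26.2 to 257.3 ± 3.50 CPM) also fell. Their mitochondrial counterparts TXN2, GLRX2 and TXNRD2 did not pass, at -0.06, 0.03 and 0.06.

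**Figure D5:**
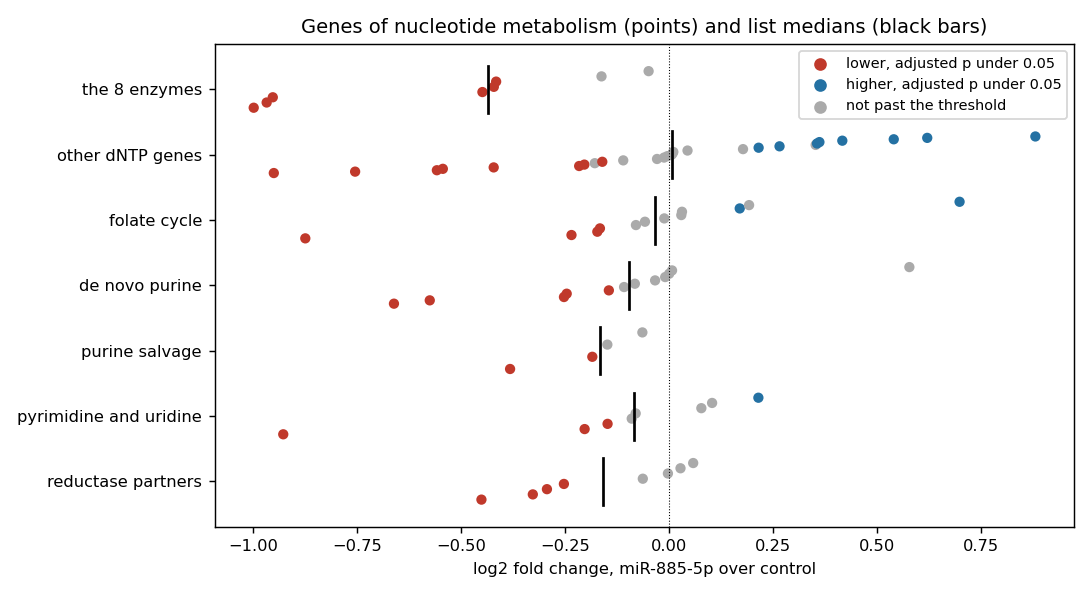
Log2 fold change, miR-885-5p over control, of each tested gene (points; red lower and blue higher at an edgeR adjusted p under 0.05, grey neither) by list, with black bars at the list medians. The 8 enzymes have a median of -0.43, and the medians of the other lists lie between -0.17 and 0.01.

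The mean of the 8 enzymes' log2 CPM, each centred on its own mean, was 0.25, 0.19 and 0.38 in control libraries 1 to 3 and -0.26, -0.25 and -0.30 with miR-885-5p. SAMHD1, DTYMK and RRM1 lay closest to this mean profile, at root mean square distances of 0.07, 0.08 and 0.09 log2 units over the 6 libraries, and DCK lay farthest at 0.25. Among all other genes with a name, the 5 nearest were ARMC7 (0.014), IER5 (0.019), MACROD2 (0.027), ATAD3B (0.027) and PHGDH (0.031). PHGDH, the entry enzyme of serine synthesis, was at 255.0 ± 10.2 and 178.7 ± 2.30 CPM (log2 fold change -0.51). Nearness describes these 6 libraries only.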

How the data were processed

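RNA-seq was measured in 6 JHH-4 libraries. Per the labels, an RNeasy kit served for extraction and a NEBNext Ultra kit for library construction. HISAT2 2.0.4, StringTie 2.2.1, DESeq2 1.38.3 and GRCh38 are named, with no role, per the submitters' processing notes. The deposited table gives a raw count per gene and library, per the file headers, and the authors' FPKM beside it. The deposited table also holds the authors' p-value and log2 fold change per gene, with no test named in the headers. It leaves 0 per-sample columns unused, and its smallest sum over the libraries was 194 counts, so genes of very low count are not in it.

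The counts of all 14034 genes were scaled by TMM and fitted with the quasi-likelihood model of edgeR 4.0.16 (R 4.3.3). The filterByExpr filter removed 0 genes. P-values were adjusted by Benjamini-Hochberg over all genes, with a threshold of 0.05. Levels are TMM-scaled CPM or FPKM, as mean ± SD over 3 libraries, and intervals are 95% from the moderated test. Libraries of a group differed beyond counting error (chi-square per degree of freedom 7.95 to 40.5). Alternatives were DESeq2 1.42.0, limma 3.58.1 (voom, and log2 of FPKM plus 0.1), a test against a 1.5-fold change, 3 other scalings, other filters, named genes alone, the replicate number as a block and leaving out each library. The fit was tested on simulated data with 200 genes changed, far fewer than the 52.9% of genes called here. It called 16 of 50 genes changed 1.2-fold and 34 of 50 changed 1.5-fold, so small changes can be missed. The members, lists, ratios and motifs were chosen with earlier results of these data known. Genes named by rule were the members, RRM2B, TK2, DGUOK, DCTD and CCNF, the 3 genes of highest FPKM in each list and the 5 nearest profiles; other named genes were chosen after their values were seen. Some listed genes and 1 computed ratio are left unreported.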

Additional observations from a re-analysis of the deposited data

How the results depend on the processing

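Over 17 alternatives, RRM2, TYMS and TK1 kept their direction and their call in each, with log2 fold changes from -0.97 to -0.90, -0.99 to -0.89 and -1.04 to -0.93. RRM1, DTYMK and SAMHD1 did so except against a 1.5-fold change, where they no longer passed at -0.42, -0.42 and -0.45 because that test asks for a larger difference. That test left 3 enzymes lower. It left 2 lower and 0 higher among other deoxynucleotide genes, 1 and 0 among folate genes, 1 and 0 among pyrimidine genes, 0 lower among purine, purine salvage and reductase partner genes, and 410 lower and 493 higher of all genes.

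For DUT, leaving out each library in turn gave -0.2552 to -0.0156, and log2 FPKM gave 0.0239. For DCK these were -0.1040 to 0.0333 and 0.0200. Log2 FPKM called 5 other deoxynucleotide genes, 2 purine and 1 purine salvage gene lower, total count scaling 2 folate, 3 purine and 1 salvage gene, and upper quartile scaling 1 salvage gene. Leaving out libraries gave 5 to 9 other deoxynucleotide genes lower and 5 to 8 higher, 2 to 4 folate genes lower and 1 to 2 higher, 0 to 1 purine genes higher, 1 to 2 salvage genes lower and 1 to 2 pyrimidine genes higher. Enzymes lower numbered 6 to 7.

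Genes that did not pass changed sign in places. SHMT2 was 0.0018 under upper quartile scaling, 0.0365 under total counts and 0.0632 in log2 FPKM. IMPDH2 was 0.0039, 0.0386 and 0.0505 there and 0.0021 with a filter at 5 CPM. GUK1 was 0.0191 under total counts and APRT 0.0016 in log2 FPKM. Leaving out libraries gave -0.0072 to 0.0304 for DCTD, -0.0560 to 0.0026 for GUK1, -0.0192 to 0.0099 for IMPDH2, -0.0167 to 0.0413 for ATIC and -0.188 to 0.123 for APRT. Total counts and log2 FPKM moved the median of all genes to 0.05. Total count scaling called 4357 genes higher and 3134 lower, and log2 FPKM 3777 and 2679. Except where stated, the cause was not tested.

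No label says that libraries of equal number share a batch. Same-numbered libraries' deviations correlated at -0.18, -0.06 and -0.15, and those of different numbers at 0.01 to 0.14. So few libraries cannot show whether equal numbers share a batch. With the replicate block, 6 enzymes were lower as before (RRM2 -0.97, RRM1 -0.42), 1 folate gene was higher instead of 2, the calls of MTR, UMPS and PNP were lost, and 3366 genes were lower and 3329 higher. With 3 libraries a group, no permutation test can go below p = 0.1. Whether libraries within a group came from separate cultures is not stated.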
